A study of Mus musculus with 6 samples.

Results

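The genes described here encode the transport machinery of the cilium and, beside it, cystin, a protein of the ciliary membrane. The machinery comprises the subunits of the intraflagellar transport (IFT) trains, the BBSome and its assembly factors, and the kinesin and dynein motors that pull the trains. They were chosen by name, as a fixed list of 39 genes, among 55573 genes in the count table. Each of the 39 was found by its Ensembl identifier, and each had enough counts to be tested, with 16 to 1524 counts per gene and library. RNA came from whole lung tissue. All mice were C57BL/6, wild type and 9 to 10 weeks old. The CS group (3 libraries) had been exposed to cigarette smoke for 75 min per session, with 2 sessions a day on 5 days a week over 4 weeks. The SS-31H_CS group (3 libraries) had been exposed to smoke and had also received SS-31, a peptide antioxidant that targets mitochondria, at 5 mg/kg once daily. The labels state the smoke schedule for the CS group alone, and no smoke-free lungs were among the libraries. They do not say that each library came from its own mouse, so p-values measure the spread between these libraries, which may be technical.

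A cilium has no ribosomes, so its proteins are carried in along the microtubules of the axoneme by IFT trains. IFT-B makes up the outward-moving part of the train, which kinesin-2 pulls to the tip, and IFT-A and dynein-2 serve the return to the base. The BBSome is a coat-like complex that rides on the trains and moves membrane proteins, and its loss causes Bardet-Biedl syndrome. These proteins serve the single primary cilium that many lung cells carry as well as the many motile cilia of airway ciliated cells. Axonemal dyneins, radial spokes and tektins belong to motile cilia. The comparison asks how the transport genes stood in smoke-exposed lungs with and without SS-31, beside the motile axoneme genes.

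RFX transcription factors bind a DNA element called the X-box, through which many cilium genes are known to be regulated. RefSeq promoter windows on GRCm38.p6 (250 bases before to 50 after the start) were found for 35 of the 39 genes. The letters GTTGCC, one arm of the X-box, were searched on both strands and occurred in 15 of the 35 genes (42.9%), against 14.1% of 27025 genes with a window. A looser arrangement, GTNNCC and GGNAAC separated by 0 to 3 bases, was also searched on both strands (on the opposite strand it reads GTTNCC and GGNNAC) and occurred in 6 of the 35 (17.1%), against 2.68% of genes. The second search overlaps the first where its first arm reads GTTGCC or its second arm reads GGCAAC, the same letters on the opposite strand. In 30 motile axoneme genes with a window, the shares were 46.7% for GTTGCC and 16.7% for the spaced arrangement. They were 55.0% and 45.0% in 20 transition zone and ciliary lipid-protein transport genes, and 33.3% and 16.7% in 12 other IFT, BBSome and dynein-2 genes. The 6 transport genes with the spaced arrangement were Bbs1, Bbs4, Bbs7, Ift22, Ift57 and Lztfl1. A match is a string of letters and not a measured binding site. The stretches below show the arrangement in Lztfl1, Bbs7 and Ift22, a lone arm in Traf3ip1, and Cys1, whose window held neither. Each runs 5′ to 3′ on the gene's strand, with matches that lie wholly within the stretch in capitals. A further spaced match in Ift22 begins at base -63 from the start, ahead of its printed stretch (from base -60). The letters of that match are therefore in lower case. They lie at chr9:123717753-123717812 (minus strand), chr3:36613474-36613533 (minus), chr5:136908090-136908149 (plus), chr1:91494562-91494621 (plus) and chr12:24681796-24681855 (minus), in that order.
Lztfl1: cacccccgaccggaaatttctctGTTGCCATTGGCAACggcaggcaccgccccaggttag
Bbs7: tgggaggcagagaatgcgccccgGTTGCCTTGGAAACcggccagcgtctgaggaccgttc
Ift22: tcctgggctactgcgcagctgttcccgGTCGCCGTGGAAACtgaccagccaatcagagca
Traf3ip1: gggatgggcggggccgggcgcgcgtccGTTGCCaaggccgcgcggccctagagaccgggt
Cys1: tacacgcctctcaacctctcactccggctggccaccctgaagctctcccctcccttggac

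Library totals ran from 15611925 to 17360052 counts. CS replicate 3 and SS-31H_CS replicate 3 formed the ends of the first principal component (-61.3 and 44.8, 46.4% of the variance), so results are also given without them where they move. Genes that mark alveolar type 2 cells were abundant in every library, with sums of 18217 to 24361 CPM (counts scaled to a common library size), so the labelled tissue matched its defining markers. Marker sums of several other cell types moved with the groups. The 18 ciliated cell markers summed to 1903 to 1943 CPM in CS against 2217 to 3555 CPM in SS-31H_CS. Of these sums, Sec14l3 alone gave 1086 to 1313 CPM in CS and 1051 to 1844 CPM in SS-31H_CS, with overlapping groups. The 10 club cell markers summed to 25910 to 31282 CPM in CS against 30228 to 65835 CPM in SS-31H_CS. The club cell sums overlapped between groups, and the highest was that of SS-31H_CS replicate 3. Scgb1a1 alone gave 18291 to 23014 CPM of them in CS and 21245 to 48062 CPM in SS-31H_CS. All 10 club cell markers had a positive log2 fold change (median 0.89). At edgeR's unadjusted p under 0.05, 7 were higher (9.93% of all genes), and by DESeq2's adjusted p 5 (3.38%). Scgb3a2 alone passed adjustment by edgeR (1.44, adjusted p = 0.0467, 0.072 without CS replicate 3), where 0.0707% of all genes were higher. Of the ciliated markers, 17 of 18 were tested, 16 had a positive log2 fold change, and 0 passed adjustment by edgeR. At edgeR's unadjusted p under 0.05, 14 were higher, where 9.93% of all genes were. By DESeq2's adjusted p, 11 were higher, where 3.38% of all genes were. No ciliated marker was at 0 in all libraries, and Mcidas alone was too low to test. The alveolar type 1 marker Pdpn had 0 counts in every library, and the cause was not tested. Sums of 8 macrophage markers were lower, at 1485 to 1901 CPM in CS against 626 to 1016 CPM in SS-31H_CS, as were those of alveolar type 1 markers (7095 to 8557 against 5426 to 6846 CPM) and endothelial markers (3426 to 4376 against 2830 to 3424 CPM). Chil3 alone gave 1222 to 1629 CPM of the macrophage sums in CS and 429 to 794 CPM in SS-31H_CS. Log2 fold changes were negative in 7 of 8 macrophage, 6 of 7 tested alveolar type 1 and 7 of 8 endothelial markers. In each of the 3 lists 1 marker was positive, and 0 passed adjustment by edgeR. The 8 lymphocyte markers summed to 56.2 CPM in CS replicate 3, where each was lowest, and to 179 to 292 CPM in the other libraries. The part of these markers in the results was not tested. In whole tissue, more cells of a type and more RNA per cell cannot be told apart.

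Most transport genes had moderately higher values with SS-31, and 1 of the 39 changed. Values are CPM on TMM-scaled library sizes. The words rose, fell and changed are kept for an adjusted p below 0.05 by edgeR's quasi-likelihood test, adjusted over all 16965 genes tested. Cys1 rose and none of the 39 fell, while 0.0707% of all genes rose and 0.0825% fell. Of the other 38, the IFT, BBSome and motor genes, 0 changed (lowest edgeR adjusted p = 0.127). A positive log2 fold change of SS-31H_CS over CS was seen in 37 of the 39 (36 with RLE size factors, 38 with library size alone), where 51.4% of all genes had one. The median log2 fold change of the 39 was 0.36 (quartiles 0.20 and 0.53), against 0.01 over all genes tested (quartiles -0.19 and 0.25). At an unadjusted p under 0.05, 16 of the 39 were higher and 0 lower, where 9.93% of all genes were higher and 8.23% lower. In 18 of the 39 each SS-31H_CS value lay above each CS value, and in 0 below, where 13.6% of all genes lay above and 12.4% below. By DESeq2, 6 of the 39 were higher at an adjusted p under 0.05 (3.38% of all genes): Cys1, Dync2h1, Ift81, Traf3ip1, Ift88 and Wdr19. The shares over all genes given so far also stand beside the counts by role and by list below. Without the low-count filter 4 of the 39 passed (1.33% of all genes were then higher).

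The size of this pattern rested in part on the third libraries. SS-31H_CS replicate 3 held the highest of the 6 values for 34 of the 39 genes, where it did so for 22.0% of all genes. CS replicate 3 held the lowest for 24 of the 39, against 28.7% of all genes. Without SS-31H_CS replicate 3 the median was 0.22, with 7 genes at an unadjusted p under 0.05 (6.92% of all genes were then higher). Without CS replicate 3 it was 0.28 with 10 genes (7.67%), and without CS replicate 1 the number was 9 (7.86%). Without the third library of both groups, an alternative chosen after seeing the data, the median was 0.18, with 7 genes at an unadjusted p under 0.05 (6.78%), and 31 of the 39 were positive, where 50.9% of all genes were.

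**Figure D1:**
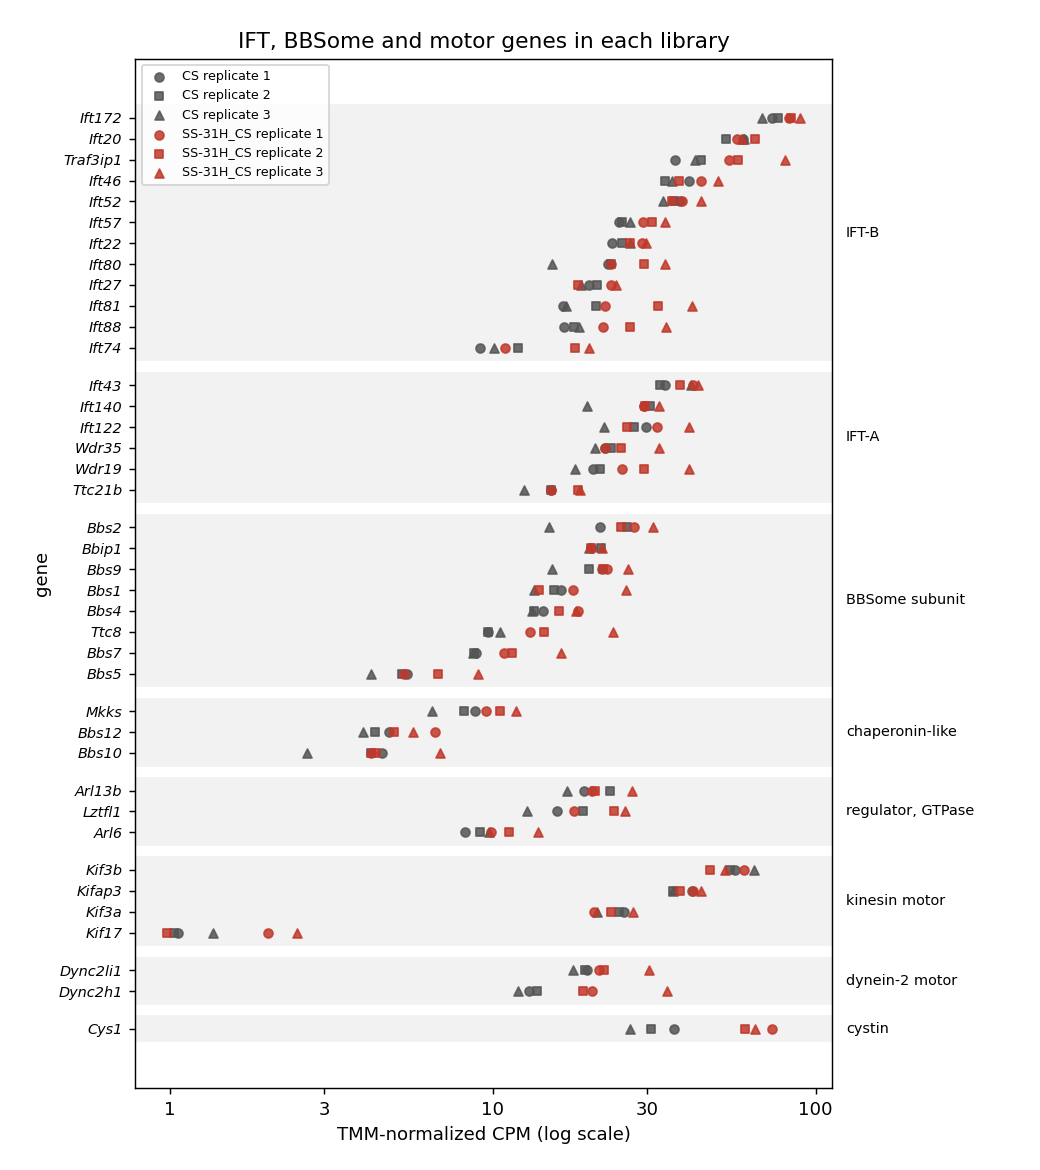
TMM-normalized CPM on a log axis for the 39 genes, grouped by role, with 1 point per library (grey for CS, red for SS-31H_CS, shape for the replicate). In 18 rows each red point lies to the right of each grey one, and the red triangle (SS-31H_CS replicate 3) is the rightmost point in 34 rows.

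Cys1 encodes cystin, a lipid-anchored protein of the ciliary membrane whose loss causes recessive polycystic kidney disease in the cpk mouse. The gene (ENSMUSG00000062563) lies on the minus strand of chromosome 12, from 24665833 to 24681813 on GRCm38. In order of replicate number, the CS libraries held 36.5, 30.8 and 26.5 CPM and the SS-31H_CS libraries 73.0, 60.4 and 64.7 CPM. Values of other genes are given in the same order. Every SS-31H_CS library was far above every CS library, and the highest was replicate 1, not replicate 3. The means were 31.3 ± 5.01 CPM and 66.0 ± 6.39 CPM (SD, n = 3 each), a 2.11-fold rise or a log2 fold change of 1.08 (SE 0.14, 95% interval 0.75 to 1.40, edgeR adjusted p = 0.0467). The value stayed between 0.97 and 1.20 whichever library was left out. The adjusted p then lay between 0.072 and 0.148, above the threshold in each of the 6 fits, and over all alternatives it ran from 2.26e-07 (DESeq2) to 0.199.

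The libraries ranked differently for Cys1 than for the mean of the other genes. Single genes could differ from that mean, and Bbs4 and Bbs12 were, like Cys1, highest in SS-31H_CS replicate 1. For the remaining 38, the mean deviation from the 6-library average of log2 CPM was -0.14, -0.12 and -0.28 in CS replicates 1 to 3, and 0.05, 0.07 and 0.42 in SS-31H_CS replicates 1 to 3. SS-31H_CS replicate 3 therefore stood apart from the other libraries for the mean of these 38. For Cys1 the deviations were -0.31, -0.55 and -0.77 in CS and 0.69, 0.42 and 0.52 in SS-31H_CS. The 35 motile axoneme genes were also highest in SS-31H_CS replicate 3 and covered a wider scale, at -0.61, -0.36 and -0.61 in CS and 0.18, 0.35 and 1.06 in SS-31H_CS. The 24 transition zone genes lay close to the 38 in each library, at -0.23 to -0.05 in CS and 0.02 to 0.34 in SS-31H_CS.

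**Figure D2:**
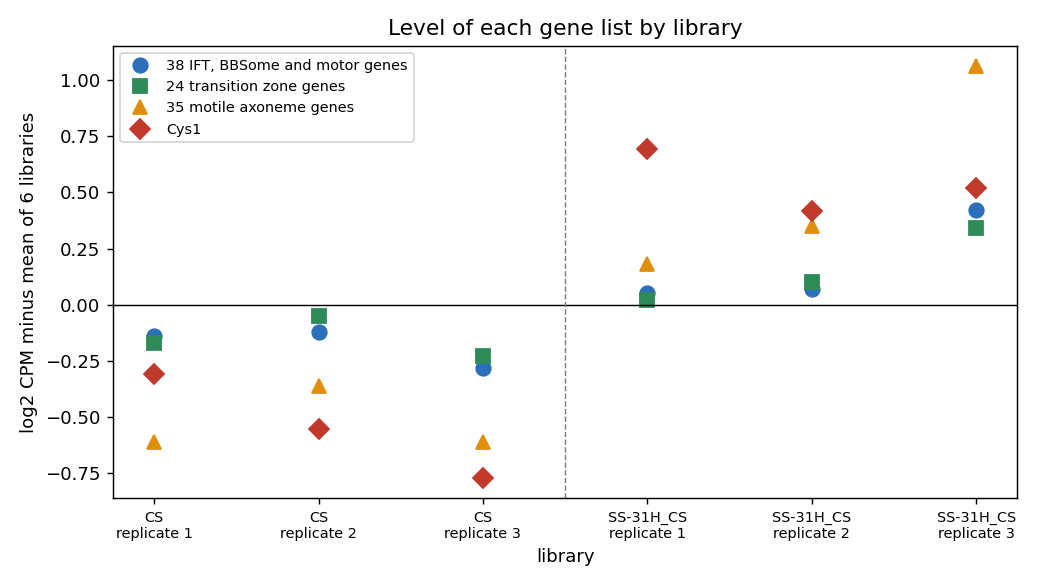
Log2 CPM minus the mean of the 6 libraries, averaged over each gene list, with 1 point per list and library and CS to the left of the dashed line. The transport genes and transition zone genes stay within 0.42 of the average, the motile axoneme genes reach 1.06 in SS-31H_CS replicate 3, and Cys1 is highest in SS-31H_CS replicate 1.

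IFT-B, the outward train, showed unequal differences among its 12 subunits. All 12 had positive log2 fold changes, from 0.07 to 0.83 with a median of 0.28, 7 were higher at an unadjusted p under 0.05, and 0 passed adjustment by edgeR (lowest adjusted p = 0.134) and 3 by DESeq2. The 7 became 3 without SS-31H_CS replicate 3 and 4 without CS replicate 3. Ift81, a core subunit that binds tubulin together with Ift74, was at 16.5, 20.9 and 16.8 CPM in the CS libraries against 22.3, 32.5 and 41.3 CPM in the SS-31H_CS libraries. The groups did not overlap, and SS-31H_CS replicate 1 lay just above the highest CS library. Its log2 fold change was 0.83 (SE 0.22, edgeR adjusted p = 0.137, DESeq2 adjusted p = 0.0224), and 0.60 without SS-31H_CS replicate 3. Ift74 itself was at 10.4 ± 1.44 CPM in CS against 16.2 ± 4.66 CPM in SS-31H_CS (log2 fold change 0.64), with overlapping groups.

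Traf3ip1, the IFT-B subunit also called IFT54, was at 36.7, 44.2 and 42.3 CPM in the CS libraries against 53.8, 57.4 and 80.5 CPM in the SS-31H_CS libraries. Its groups were clear of each other, and its log2 fold change of 0.64 (SE 0.17, edgeR adjusted p = 0.134) became 0.43 without SS-31H_CS replicate 3. Ift88, whose mutation in the ORPK mouse shortens cilia, was at 16.6, 17.8 and 18.5 CPM in the CS libraries against 22.0, 26.5 and 34.4 CPM in the SS-31H_CS libraries. Here too each treated library exceeded each CS library (log2 fold change 0.65, SE 0.17, edgeR adjusted p = 0.137, 0.46 without SS-31H_CS replicate 3). At the other end, Ift20, the subunit also found at the Golgi, was at 59.6, 52.7 and 60 CPM in the CS libraries against 57, 65.0 and 59.2 CPM in the SS-31H_CS libraries. The groups overlapped almost completely (log2 fold change 0.07, 95% interval -0.17 to 0.31). Ift52, Ift27, Ift22, Ift172, Ift46 and Ift57 had log2 fold changes between 0.13 and 0.31, and Ift80 one of 0.50 (0.33 without CS replicate 3). Without SS-31H_CS replicate 3, Ift52 was at 0.04, Ift27 at 0.06 and Ift46 at 0.15. Among these 7, the groups did not overlap for Ift22, Ift57, Ift80 and Ift172.

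IFT-A, the part of the train needed for return and for entry of membrane proteins, had positive log2 fold changes in all 6 subunits, with a median of 0.28 that became 0.14 without SS-31H_CS replicate 3 (0.22 for IFT-B). At an unadjusted p under 0.05, 1 was higher, and 0 passed adjustment by edgeR (1 by DESeq2). That gene, Wdr19 (IFT144), was at 20.4, 21.5 and 18 CPM in the CS libraries against 25.1, 29.4 and 40.4 CPM in the SS-31H_CS libraries. Its groups did not overlap (log2 fold change 0.66, SE 0.18, edgeR adjusted p = 0.146, 0.44 without SS-31H_CS replicate 3). Ttc21b was at 15.1, 15.1 and 12.5 CPM in the CS libraries against 15.1, 18.3 and 18.6 CPM in the SS-31H_CS libraries, and Ift43 at 34.2, 33.0 and 41.1 CPM against 41.8, 38 and 43.3 CPM. Both overlapped between groups, with log2 fold changes of 0.28 and 0.19. Ift122 (0.32), Wdr35 (0.27) and Ift140 (0.20) had overlapping groups. Without SS-31H_CS replicate 3, Ift122 was at 0.14 and Wdr35 at 0.09. For Ift140, 0.20 became 0.02 without CS replicate 3, its lowest library (19.6 CPM).

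The 8 BBSome subunits had positive log2 fold changes from 0.01 to 0.77 (median 0.39), with Bbip1 turning to -0.01 under RLE size factors. At an unadjusted p under 0.05, 3 were higher, and 0 passed adjustment by edgeR (lowest adjusted p = 0.169) or by DESeq2. The 3 became 1 without SS-31H_CS replicate 3. Ttc8, the BBS8 subunit, was at 9.7, 9.7 and 10.5 CPM in the CS libraries against 13, 14.4 and 23.5 CPM in the SS-31H_CS libraries. The CS libraries were nearly equal, and the treated libraries were spread out above them (log2 fold change 0.77, SE 0.23, edgeR adjusted p = 0.169, 0.45 without SS-31H_CS replicate 3). Bbs7 was at 8.9, 8.8 and 8.7 CPM in the CS libraries against 10.8, 11.5 and 16.3 CPM in the SS-31H_CS libraries. It followed the same layout (log2 fold change 0.55, SE 0.20, edgeR adjusted p = 0.210, 0.34 without SS-31H_CS replicate 3). Bbs4 (0.36) and Bbs9 (0.31) also had groups that did not overlap, while Bbs5 (0.51), Bbs2 (0.42) and Bbs1 (0.35) overlapped. Without SS-31H_CS replicate 3, Bbs1 was at 0.07 and Bbs5 at 0.28, and without CS replicate 3, Bbs2 was at 0.23 and Bbs9 at 0.17. Bbip1, the smallest subunit, was at 20.1, 21.7 and 19.9 CPM in the CS libraries against 20.1, 20.1 and 21.8 CPM in the SS-31H_CS libraries. Its log2 fold change was 0.01 with a 95% interval of -0.26 to 0.28, so a difference of the size of the BBSome median lay outside the interval.

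Bbs10, Bbs12 and Mkks encode chaperonin-like proteins that help to assemble the BBSome. They had log2 fold changes of 0.40 to 0.44. Mkks was at 8.8, 8.1 and 6.5 CPM in the CS libraries against 9.5, 10.5 and 11.8 CPM in the SS-31H_CS libraries, without overlap (0.44, SE 0.19, edgeR adjusted p = 0.267). Of the Mkks exon bases, 29.3% are shared with other annotated genes on the same strand, so its counts are uncertain. Bbs12 was at 4.8, 4.3 and 4.0 CPM in the CS libraries against 6.6, 5.0 and 5.6 CPM in the SS-31H_CS libraries, also without overlap (0.40, SE 0.21, edgeR adjusted p = 0.357). Bbs10 overlapped between groups (0.44, SE 0.30) and went to 0.16 without SS-31H_CS replicate 3.

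Lztfl1 restrains entry of the BBSome into the cilium, the GTPase Arl6 recruits the BBSome to membranes, and the GTPase Arl13b marks the ciliary membrane. Lztfl1 was at 15.8, 19.0 and 12.8 CPM in the CS libraries against 17.8, 23.8 and 25.6 CPM in the SS-31H_CS libraries. One treated library fell within the CS range (log2 fold change 0.50, SE 0.20, edgeR adjusted p = 0.242). Arl6 was at 8.2, 9.1 and 9.8 CPM in the CS libraries against 9.9, 11.2 and 13.8 CPM in the SS-31H_CS libraries. The groups touched without overlapping (0.37, SE 0.18, edgeR adjusted p = 0.332, 0.22 without SS-31H_CS replicate 3). Arl13b had 19.2, 23.0 and 17.0 CPM in the CS libraries against 20.3, 20.7 and 26.9 CPM in the SS-31H_CS libraries, with overlap (0.20, SE 0.17, 0.05 without SS-31H_CS replicate 3).

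Of the 4 genes for kinesin-2, the outward motor, 0 passed edgeR's test at an adjusted or an unadjusted p under 0.05, and 0 passed by DESeq2. Kif3b, a motor subunit of heterotrimeric kinesin-2, was at 56.1, 54.3 and 64.5 CPM in the CS libraries against 59.8, 47.2 and 52.4 CPM in the SS-31H_CS libraries. It overlapped between groups and had the lowest log2 fold change of the 39 (-0.13, 95% interval -0.42 to 0.15). Its partner Kif3a was at 23.6 ± 2.32 CPM in CS against 23.6 ± 3.41 CPM in SS-31H_CS (95% interval of the log2 fold change -0.34 to 0.34), and the adaptor Kifap3 at 37.9 ± 3.14 and 41.2 ± 3.01 CPM (0.12). Kinesin-2 also moves cargo outside the cilium. Kif17, a homodimeric kinesin-2, was at 1.1, 1.0 and 1.4 CPM in the CS libraries against 2.0, 1.0 and 2.5 CPM in the SS-31H_CS libraries, with the widest SE of the 39 (0.66, SE 0.39, edgeR adjusted p = 0.410, 0.38 without SS-31H_CS replicate 3).

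Dync2h1 encodes the heavy chain of dynein-2, the return motor. It was at 12.9, 13.7 and 12.0 CPM in the CS libraries against 20.3, 19.0 and 34.6 CPM in the SS-31H_CS libraries. The groups were clear of each other, with SS-31H_CS replicate 3 well above the rest. Its log2 fold change of 0.94 (SE 0.23, 95% interval 0.40 to 1.48, edgeR adjusted p = 0.127) was the next highest after Cys1, and became 0.61 without that library. DESeq2 gave an adjusted p of 0.0112. The light intermediate chain gene Dync2li1 was at 19.5, 19.3 and 17.7 CPM in the CS libraries against 21.3, 22.1 and 30.4 CPM in the SS-31H_CS libraries, again without overlap (0.38, SE 0.16, edgeR adjusted p = 0.264, 0.20 without SS-31H_CS replicate 3). The difference between the dynein-2 and kinesin-2 genes was not tested.

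**Figure D3:**
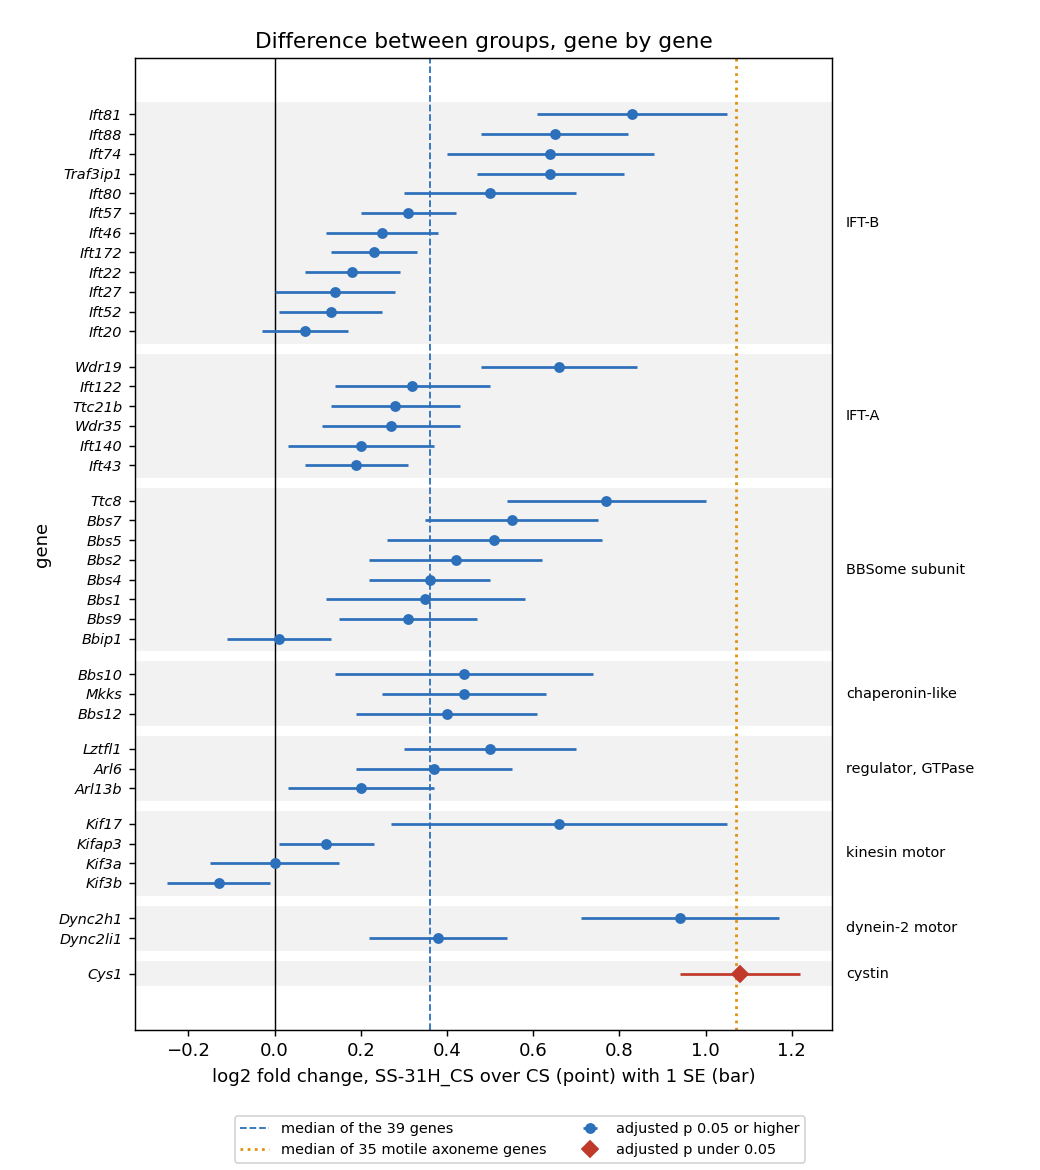
Log2 fold change of SS-31H_CS over CS for each of the 39 genes with bars of 1 SE, ordered within roles. Cys1 (red diamond, 1.08) is the only gene with an adjusted p under 0.05, Dync2h1 (0.94) and Ift81 (0.83) follow, and Kif3b (-0.13) is lowest, while the dotted line marks the motile axoneme median of 1.07.

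Levels between genes were compared per length, by the FPKM that the authors deposited. In CS, Ift20 was highest at 36.9 ± 1.95 FPKM, followed by Ift43 at 21.4 ± 1.95 FPKM and Ift52 at 12.6 ± 1.04 FPKM. The median of the 39 gene means was 3.73 FPKM. The next genes in order were Traf3ip1 (10.8 ± 1.13), Ift172 (10.8 ± 0.942), Cys1 (10.4 ± 1.83) and Kif3b (10.1 ± 0.653 FPKM), which do not differ beyond their spread. In SS-31H_CS, Cys1 was at 22.7 ± 1.78 FPKM, near Ift43 at 25.3 ± 1.12 FPKM. The return motor heavy chain Dync2h1 (0.773 ± 0.0702 FPKM) and Kif17 (0.247 ± 0.0289 FPKM) were lowest in CS. Subunits of 1 complex could differ widely in level, and Ift80, in IFT-B like Ift20, was at 1.62 ± 0.398 FPKM in CS. FPKM depends on the gene length that the authors used, which was not given in the sources used here.

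Most genes of the same pathway outside the 39 also had positive log2 fold changes. Of 13 tested genes for other IFT, BBSome and dynein-2 proteins, 11 had positive log2 fold changes (median 0.24) and 5 were higher at an unadjusted p under 0.05, with 0 past adjustment by edgeR and 2 by DESeq2. Without SS-31H_CS replicate 3 the median was 0.13, with 8 of 13 positive and 2 at an unadjusted p under 0.05. The 2 past DESeq2's threshold were Wdr34, a dynein-2 intermediate chain (0.84, SE 0.20, edgeR adjusted p = 0.111), and Ttc21a, a paralog of the IFT-A gene Ttc21b (1.09, SE 0.30, edgeR adjusted p = 0.141, 0.66 without SS-31H_CS replicate 3). Of 24 genes of the transition zone, the gate at the ciliary base, and of ciliary lipid-protein transport, 21 were positive (median 0.30), 11 were higher at an unadjusted p under 0.05 and 0 passed adjustment by edgeR (3 by DESeq2). The 11 became 3 without SS-31H_CS replicate 3, and the median 0.22. The lowest p-values there belonged to Nphp4 (1.02, SE 0.26, edgeR adjusted p = 0.132) and Rpgrip1l (0.91, SE 0.25, edgeR adjusted p = 0.141).

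The 35 motile axoneme genes had a higher median log2 fold change than the transport genes. This list shares 1 gene, Dynlrb2, with the ciliated cell markers. Not all of its genes encode parts of the axoneme. Dynlrb2 encodes a light chain of cytoplasmic dyneins, and Dnaaf1, Zmynd10 and Lrrc6 serve dynein assembly. All 35 were positive, with a median of 1.07, a range from 0.35 (Dnal1) to 1.49, and 34 at an unadjusted p under 0.05. Cfap43 (1.49) and Ccdc151 (1.22) rose, each with an edgeR adjusted p of 0.0467. Neither passed without CS replicate 3 (0.0868 and 0.0769) or without SS-31H_CS replicate 3 (0.126 and 0.148). In the fit without the third library of both groups, 2 of the 35 passed, among 36 genes over the whole table. These were Cfap43 (1.24) and Dynlrb2 (0.92), each with an edgeR adjusted p of 0.0454. Ccdc151 did not pass there (1.15, edgeR adjusted p = 0.0595). In 33 of the 35 the groups did not overlap, against 18 of the 39 transport genes. Cys1 (1.08) lay at the motile axoneme median, and the other 38 lay below it. Without the third library of both groups the medians were 0.70 for the motile axoneme genes and 0.18 for the 39. Both lists share the same libraries and the difference between the lists was not tested. Earlier results of these data had already shown motile cilium genes to be higher, so their values are no independent support.

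Among the regulators, Foxj1, which drives the motile cilium program, went from 60.5 ± 7.67 to 150 ± 44.8 CPM (1.31, edgeR adjusted p = 0.0728). Rfx3 was at 9.68 ± 1.21 CPM in CS against 14.4 ± 3.18 CPM in SS-31H_CS (0.57, edgeR adjusted p = 0.211), and Rfx2 at 37.0 ± 2.99 and 36.1 ± 5.40 CPM (-0.03, edgeR adjusted p = 0.910, -0.16 to 0.05 over single libraries left out). The higher summed level of ciliated cell markers in the SS-31H_CS libraries moved with the transport genes, and its part in their values was not tested.

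**Figure D4:**
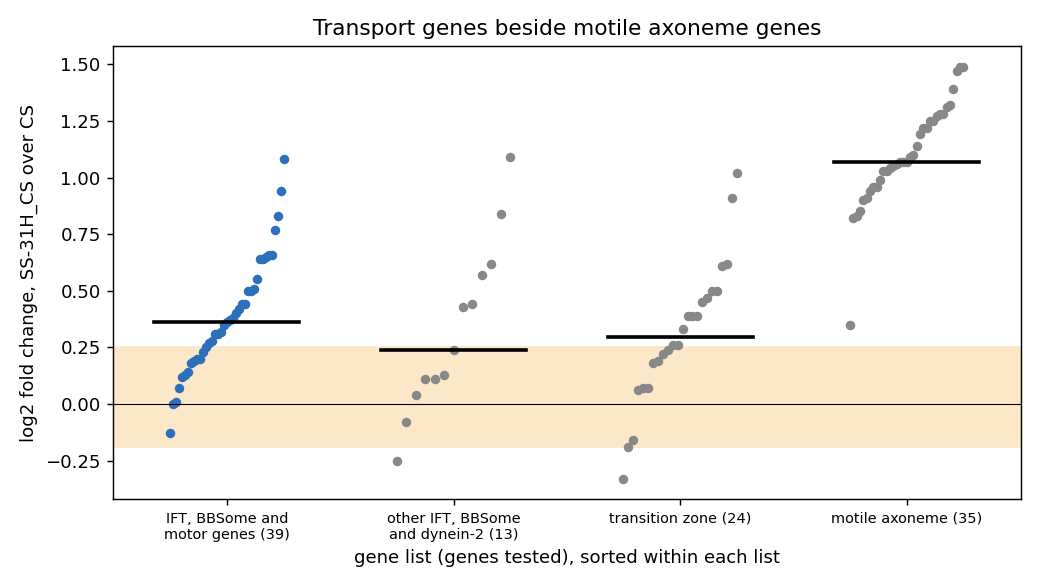
Log2 fold change of SS-31H_CS over CS for each tested gene of 4 lists, sorted within each list, with black bars at the medians and a shaded band between the quartiles of all genes tested (-0.19 to 0.25). The 39 transport genes spread from inside the band up to 1.08 around a median of 0.36, and the 35 motile axoneme genes all lie above the band.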

How the data were processed

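The deposited tables held, for each of the 6 libraries, unnormalized counts by Ensembl identifier and the authors' FPKM. According to the submitters' processing notes, cutadapt 1.9.1, HISAT2 2.0.1, HTSeq 0.6.1 and GRCm38 were used. The annotation release, strand setting and filters were not given in the sources used here. Symbols and coordinates came from GENCODE M21 (55394 of 55573 identifiers matched). The groups were compared by edgeR 4.0.16 (R 4.3.3) with TMM scaling, filterByExpr (minimum count 10, total 15), the quasi-likelihood test, two-sided, and Benjamini-Hochberg adjustment over 16965 genes. CPM were computed from the counts, and 3 counts equalled 0.173 to 0.192 CPM. The labels do not say what a shared replicate number means, and the numbers were not in the model. The genes and lists were chosen with earlier results of these data known. Per-library values are given for changed genes, the 2 lowest p-values per role and each role's extremes. Ift74, Kif3a, Kifap3, Bbs10 and Dnal1 were added after their values were seen. Promoter letters were searched with exact matching, also after results were known. Alternatives were other scalings and filters, DESeq2 1.42.0, limma voom and limma trend on log2 FPKM (limma 3.58.1), a replicate block, and leaving out libraries. The scripts were tested on simulated data.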

Additional observations from a re-analysis of the deposited data

How the results depend on the processing

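The median log2 fold change of the 39 genes kept its sign in every alternative run (0.18 to 0.45). The number of changed genes over the whole table, 26, was 12 with library size alone, 648 without a low-count filter, 948 by DESeq2, 6 by limma voom, 6 by limma trend with a pseudocount of 1 added to FPKM, 5 with 0.1 (both above a mean FPKM of 0.5) and 4 with 1 and no filter. Leaving out a single library gave 1 to 15, and leaving out the third libraries of both groups gave 36. Among the 39 genes the number that changed, 1, was 0 with library size alone, by voom, in the 3 FPKM fits, without any single library (0 to 0) and without the third libraries of both groups, 4 without a low-count filter (Ift81, Traf3ip1, Dync2h1 and Cys1) and 6 by DESeq2. The number at an unadjusted p under 0.05 was 15 by voom and 18, 18 and 17 in the FPKM fits, was between 7 and 17 with a single library left out, and was 7 without the third libraries of both groups. Over all genes it was 3000 of 16965 by voom, and 2778 and 2757 of 16230 and 3422 of 29397 in the FPKM fits. It was 2064 to 3321 with a single library left out and 2061 of 17132 without the third libraries of both groups. With the replicate number as a block, 0 genes changed, 0 of them among the 39, and Cys1 had a log2 fold change of 1.08 (edgeR adjusted p = 0.145), while 2682 genes over the whole table and 11 of the 39 had an unadjusted p under 0.05. Same-numbered libraries did not deviate together (correlations of 0.00721, 0.0363 and -0.0571 over 16965 genes). Differently numbered ones had correlations of -0.103 to 0.0712. The labels do not say what a shared number means, and these correlations cannot settle whether the libraries were paired. The sign of Bbip1 turned with RLE size factors (-0.01), without a low-count filter (-0.0031), by DESeq2 (-0.01), without the third libraries of both groups (-0.06) and over single libraries left out (-0.04 to 0.04). That of Kif3a turned with library size alone (0.05), a filter at 1 CPM (0.0032), in the FPKM fits (0.04, 0.05 and 0.04) and over single libraries left out (-0.12 to 0.09). Without the third libraries of both groups, Ift52 (-0.0027), Ift140 (-0.04), Bbs1 (-0.0028), Bbs10 (-0.03) and Arl13b (-0.05) turned as well. The cause of these changes was not tested. With 3 libraries per group, log2 fold changes of up to 0.94 among the 39 did not pass edgeR's threshold, and the widest SE were those of Kif17 (0.39) and Bbs10 (0.30).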
